A study of Mus musculus with 8 samples.

Results

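The zinc finger genes numbered Zfp900 to Zfp999 were followed in 8 mouse tumors profiled by bulk RNA-seq. A gene counted as a member when its annotation (GENCODE M21) called it protein-coding, its symbol was Zfp plus a number in that range, and its counts summed to at least 80 over the 8 libraries. Of 63 such protein-coding genes among the 55487 rows of the count table, 43 were members, with summed counts of 100 to 13413. Another 273 genes named Zfp plus a number outside the range met the same minimum, as did 17044 rows in all. The rule itself names neither genotype nor fold change, but it was set with earlier results of these data known. The deepest libraries, which weigh most in a raw sum of counts, came from the same genotype.

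Lewis lung carcinoma (LLC), a cancer line from mouse lung, was implanted subcutaneously in C57BL/6J mice and the tumors were taken at day 12, 4 from wild-type cells and 4 from cells labelled Ago2 knock-out (ΔAgo2). Argonaute 2 (Ago2) is the protein that carries small RNAs to matching transcripts and can cut them. Per the study's methods, the animals were females bought at 6 to 8 weeks of age, and the knock-out came from a lentiviral CRISPR vector followed by single-cell sorting. The ΔAgo2 tumors thus derive from 1 clone, and what separates that clone from the wild-type line besides Ago2 cannot be told apart from the knock-out. No treatment was named for these mice, the host cells inside each tumor keep Ago2, and the batch label was the same throughout. Values below are given in the order of tumors 1 to 4 of each genotype.

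Total counts were 7903288 to 52809635 in the wild-type tumors and 31846706 to 268564145 in the tumors labelled ΔAgo2, so the shallowest library was wild-type 4 and the deepest ΔAgo2 4. A count of 0 still allowed up to 0.430 CPM (counts scaled to a common library total, here with edgeR's TMM factors) in wild-type 4 and 0.0105 CPM in ΔAgo2 4, for counting error only. Ago2 itself was counted at 129.9, 195, 151.3 and 138 CPM in the wild-type, and in the knock-out libraries at 118, 355, 215 and 270.1 CPM. The transcript was thus no lower where the label says knock-out (log2 fold change 0.64, SE 0.30, adjusted p = 0.205 by edgeR). A small edit need not remove the mRNA, and host cells add their own, so this level cannot check the labels, and every direction given here rests on them. For the knock-out in the LLC cells themselves, the study presents a western blot of Ago2 protein.

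Most genes of this group encode KRAB zinc finger proteins. In this family a row of C2H2 zinc fingers, each holding a zinc ion between a pair of cysteines and a pair of histidines, reads a DNA sequence, while the KRAB domain at the other end binds the cofactor TRIM28 (KAP1). TRIM28 brings in the histone methyltransferase SETDB1, HP1 proteins and the NuRD complex, and the bound site is silenced by methylation of histone H3 at lysine 9. The family is known above all for silencing endogenous retroviruses and other transposable elements, and its genes lie in clusters that grew by duplication.

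Coding stretches of the members whose differences passed a test, and of a contrasting member, show the parts of these genes that carry the family's function. The first zinc fingers below are written 5′ to 3′ on the coding strand, with the codons of the 2 cysteines and 2 histidines in capitals, from GENCODE M21 transcripts on GRCm38 (mm10). Zfp945 (chr17:22852228-22852290, minus strand, last of 5 exons) and Zfp941 (chr7:140812362-140812424, minus strand, last of 3 exons) are shown beside Zfp956 (chr6:47963687-47963749, plus strand, last of 5 exons), the member with the highest GC content.
Zfp945 finger: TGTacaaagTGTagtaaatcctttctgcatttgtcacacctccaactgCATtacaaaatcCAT
Zfp941 finger: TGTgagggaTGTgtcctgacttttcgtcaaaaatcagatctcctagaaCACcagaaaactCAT
Zfp956 finger: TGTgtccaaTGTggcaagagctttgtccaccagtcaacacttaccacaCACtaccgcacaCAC
The spacing of the capitals is the same in all 3 fingers, while G and C make up 36.5% of the bases in Zfp945, 41.3% in Zfp941 and 50.8% in Zfp956. Exonic GC content over the whole gene followed the same order, with 35.9%, 44.6% and 53.6%.

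The core of the KRAB domain is shown for the same pair and for the chromosome 2 genes, because identical stretches bear on how reads can be counted. Capitals mark the codons of the leucine and tyrosine that the search motif has at this point. Zfp945 is at chr17:22857284-22857331 (minus strand, exon 4), Zfp941 at chr7:140818622-140818669 (minus strand, exon 2), and Zfp971 at chr2:178031300-178031347 (plus strand, exon 2).
Zfp945 KRAB core: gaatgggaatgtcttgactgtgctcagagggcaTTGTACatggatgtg
Zfp941 KRAB core: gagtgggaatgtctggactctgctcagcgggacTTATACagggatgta
Zfp971 KRAB core: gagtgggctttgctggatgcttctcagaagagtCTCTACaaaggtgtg
Zfp945 and Zfp941 matched at 39 of 48 bases, and Zfp945 and Zfp971 at 29 of 48. The stretch of Zfp971 was identical over all 48 bases in Zfp970, another member, and in Zfp966 and Zfp967, both below the minimum of counts.

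In translated transcripts, 41 of the 43 members matched an amino acid pattern for the KRAB core, the exceptions being Zfp956 and Zfp974. A miss means only that the pattern was not matched. The number of C2H2 fingers matching a fixed spacing ran from 0 to 21 with a median of 11. Zfp972, one of the weakest members, had 0 such fingers and a predicted protein of 139 residues that kept the KRAB core. The members were low in GC, with a median exonic GC of 39.1% (35.6 to 53.6%), and 40 of the 42 members that could be tested lay below the median of all genes tested, 49.6%.

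Position split the group into a large cluster, several small ones and single genes. Chromosome 17 held 13 members, of which 10 sat within chr17:21567008-22867134: Zfp942, Zfp943, Zfp944, Zfp945, Zfp946, Zfp947, Zfp948, Zfp983, Zfp994 and Zfp995. Chromosome 4 held 6 members, all within chr4:145510759-147848366 (Zfp933, Zfp979, Zfp984, Zfp991, Zfp992 and Zfp993), and 10 more genes of the range in that stretch stayed under the minimum. Chromosome 2 held 5, with Zfp931, Zfp970, Zfp971 and Zfp972 within chr2:177464733-178078476 and Zfp937 elsewhere. The other members were spread over chromosome 7 (Zfp940, Zfp941, Zfp954, Zfp974, Zfp975, Zfp976), chromosome 8 (Zfp930, Zfp958, Zfp961, Zfp963, Zfp964), chromosome 13 (Zfp934, Zfp953), chromosome 5 (Zfp932, Zfp951), the rest of chromosome 17 (Zfp952, Zfp959, Zfp960), and chromosomes 6, 9, 10 and 19 (Zfp956, Zfp949, Zfp938, Zfp950).

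Which genes of the range reached the minimum went with how much of their sequence is shared. Among all 100-base words of a gene's annotated transcripts, a median of 3.21% also occurred in transcripts of another gene for members and 53.0% for the 20 genes under the minimum. Words shared at over 40% were found in 3 of 43 members (Zfp960, Zfp991 and Zfp993) and in 13 of the 20 others. For example, Zfp967 shared 100% of its words, had 9 counts over all libraries, and is one of the chromosome 2 genes with the identical KRAB core. Of the 20, 7 stood at 0 counts in all 8 libraries. How reads matching several genes were counted is not given in the sources used here, so low counts and shared sequence cannot be told apart, and values of members with a large shared part are uncertain.

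**Figure D1:**
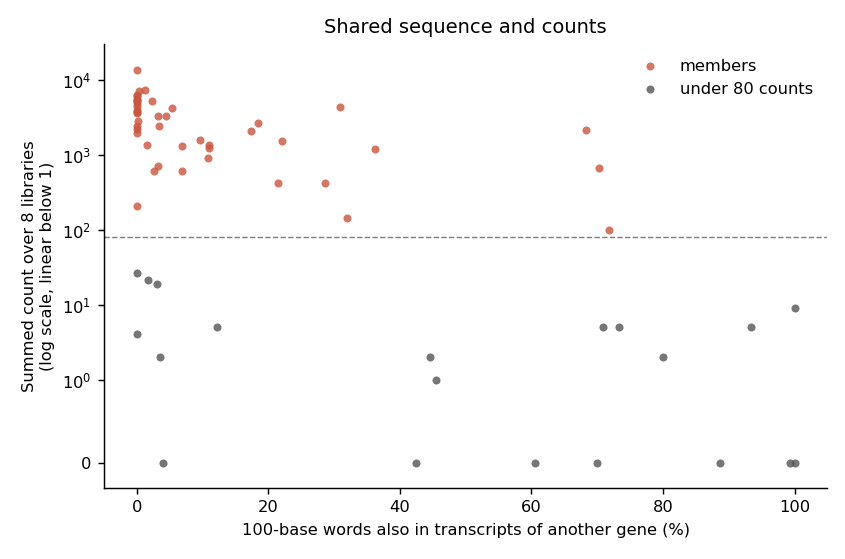
Summed count over the 8 libraries (vertical axis, log scale above 1 count) against the share of 100-base words found in another gene's transcripts (horizontal axis, percent), 1 point per gene for the 63 genes of the range, with a dashed line at the minimum of 80 counts. Of the genes sharing over 40%, 13 lie under the line and 3 above it.

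Around the minimum, Zfp993 with 100 and Zfp972 with 141 summed counts were just inside, while Zfp977 with 26 and Zfp985 with 21 were just outside. Zfp993 was the one member that did not pass edgeR's filter on low counts, so 42 of 43 were tested. The filter asks for 0.200 CPM in at least 4 libraries, and 13 of the tested members reached that level in fewer than 4 wild-type libraries, so for these 13 the libraries labelled ΔAgo2 helped to bring them into the test. Some genes also became members only through counts of the tumors labelled ΔAgo2. These were Zfp947, Zfp964, Zfp971, Zfp972, Zfp976, Zfp979, Zfp991, Zfp992 and Zfp993, whose wild-type counts alone stayed under the minimum.

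Levels per length were low. The mean TPM (the deposited unit, scaled for length and library total) over the 8 libraries had a median of 2.33 among the members, with a range of 0.119 to 18.3, against 5.56 for the other numbered Zfp genes and 10.6 for all genes tested. By mean TPM, 11 members were under 1 and 9 were over 5. The 5 with the highest mean TPM were Zfp948 (18.3), Zfp954 (11.1), Zfp944 (6.28), Zfp961 (6.26) and Zfp952 (5.81). Zfp948 ran from 4.68 to 47.2 TPM over the libraries and Zfp954 from 6.27 to 14.0, so these neighbours in the order overlapped, and the next 3 differed by less than their own spread over libraries.

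Across libraries the members moved together. Of the 43, 35 had their highest CPM in ΔAgo2 2, the library that was highest for 24.4% of all genes tested. Their lowest CPM fell in wild-type 4 for 26 members and in wild-type 2 for 14, against 27.7% and 16.4% of all genes tested. The mean log2 CPM of the tested members was 1.02, 0.24, 1.37 and -0.27 in the wild-type, and 1.07, 2.31, 1.28 and 1.86 in the tumors labelled ΔAgo2. Wild-type 1 and 3 thus lay within the range of the tumors labelled ΔAgo2 or just under it, and the gap between the group means came from wild-type 2 and 4 below and ΔAgo2 2 and 4 above.

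The same libraries differed in how a gene's level depended on its GC content, whatever the gene. At 38% GC, close to the members' median, the fitted trend over expressed genes stood at -0.06, -0.85, 0.16 and -0.99 (log2) in the wild-type, and at 0.00, 1.01, 0.23 and 0.72 in the tumors labelled ΔAgo2. At 60% GC the order turned, with -0.09, 0.61, -0.15 and 0.86 in the wild-type and -0.06, -0.48, -0.31 and -0.39 in the tumors labelled ΔAgo2. Low-GC genes were therefore counted at a higher level in ΔAgo2 2 and 4 and at a lower one in wild-type 2 and 4. Tumors 1 and 3 of both genotypes stood closer together. In the other 4 libraries the direction of the trend goes with the genotype, so both cannot be told apart there, and the fold changes of the edgeR fit below are given without and with removal of every library's own GC trend. Marker sums and the counts of other tools are uncorrected.

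With that trend removed, the mean log2 CPM of the tested members was 1.05, 0.94, 1.22 and 0.57 in the wild-type, and 1.08, 1.49, 1.07 and 1.28 in the tumors labelled ΔAgo2. The means over libraries went from 0.59 ± 0.74 and 1.63 ± 0.57 (SD, n = 4) without the correction to 0.94 ± 0.28 and 1.23 ± 0.20 with it. After correction 19 of 42 members were highest in ΔAgo2 2 and 12 in wild-type 4, against 15.8% and 19.7% of all genes tested.

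**Figure D2:**
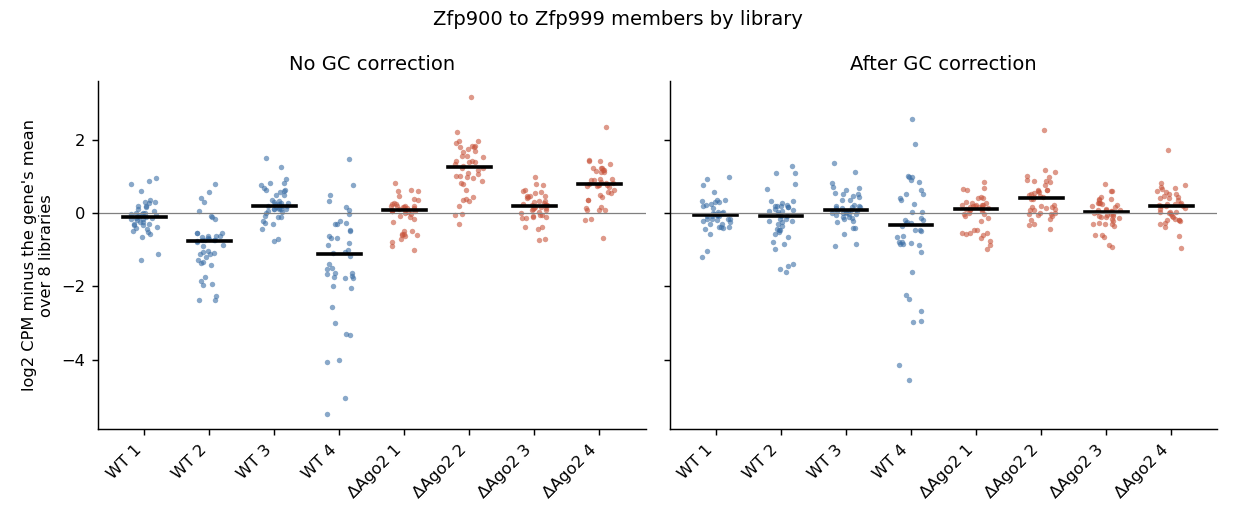
Each point is 1 of the 42 members tested in 1 library, as log2 CPM minus that gene's mean over the 8 libraries, without (left) and with (right) removal of each library's GC trend. Bars mark medians, which run from -1.13 in wild-type 4 to 1.26 in ΔAgo2 2 on the left and from -0.32 to 0.41 in the same libraries on the right.

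The comparison of genotypes asked which members differ between tumors whose cancer cells carry Ago2 and tumors labelled as lacking it. Without correction, 38 of the 42 members had a higher fitted level in the tumors labelled ΔAgo2 (90.5%, beside 52.5% of all genes and 87.8% of the genes of like GC described below), and the median log2 fold change was 0.97, from -1.25 (Zfp941) to 3.24 (Zfp971), while the median of all 16061 genes tested was 0.04. One member passed the test, Zfp945, which rose (edgeR quasi-likelihood test, adjusted p under 0.05 after Benjamini-Hochberg adjustment over all genes tested). That is 2.38% of the members tested, beside a background of 3.49% of all genes (560 called, 1.36% of all genes higher and 2.12% lower). A share that rests on 1 gene is no result about the members as a group. The 38 higher members include genes that reached the minimum only with counts of the tumors labelled ΔAgo2. Their number is therefore not independent of the choice of members.

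With GC correction, 27 of 42 members were higher (64.3%, beside 49.6% of all genes and 49.1% of the genes of like GC described below). The 27 include genes that reached the minimum only with counts of the tumors labelled ΔAgo2, so this number also depends on the choice of members. The median was 0.15, beside -0.0048 for all genes. Again 1 member passed, Zfp941, which fell, and no member rose past the threshold, beside a background of 4.17% (1.77% higher and 2.40% lower). Between both fits, 26 members were higher in both, 12 were higher without and lower with correction, 3 were lower in both (Zfp941, Zfp954 and Zfp964), and Zfp956 alone turned from lower to higher. In the corrected fit, 7 members reached an unadjusted p under 0.05, 6 of them higher, against 16 members, 15 of them higher, without it. The share of all genes with such a p was 21.4% with and 26.7% without correction, and of those higher 10.1% and 13.7%. For the 1823 genes of like GC described below it was 20.2% with and 40.1% without correction. The members stood at 16.7% and 38.1%. Of the genes of like GC, 369 had such a p with correction, 160 of them higher, and 731 without it, 700 of them higher.

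Genes of like GC content shifted in the same direction. Between the quartiles of the members' GC content, 37.3 and 42.2%, lay 1823 tested genes that were no members. Their median log2 fold change was 0.67 without correction and -0.01 with it, beside 0.97 and 0.15 for the members. The other numbered Zfp genes (271 tested, median GC 45.8%) had medians of 0.36 and 0.08, with 2 called higher and 3 lower without correction. Whether the members differ from genes of like GC was not tested. Over members, fold change and GC content had a Spearman correlation of -0.46 without and 0.00 with correction (n = 42 genes measured in the same 8 libraries), and -0.56 and 0.02 over all 16061 genes.

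**Figure D3:**
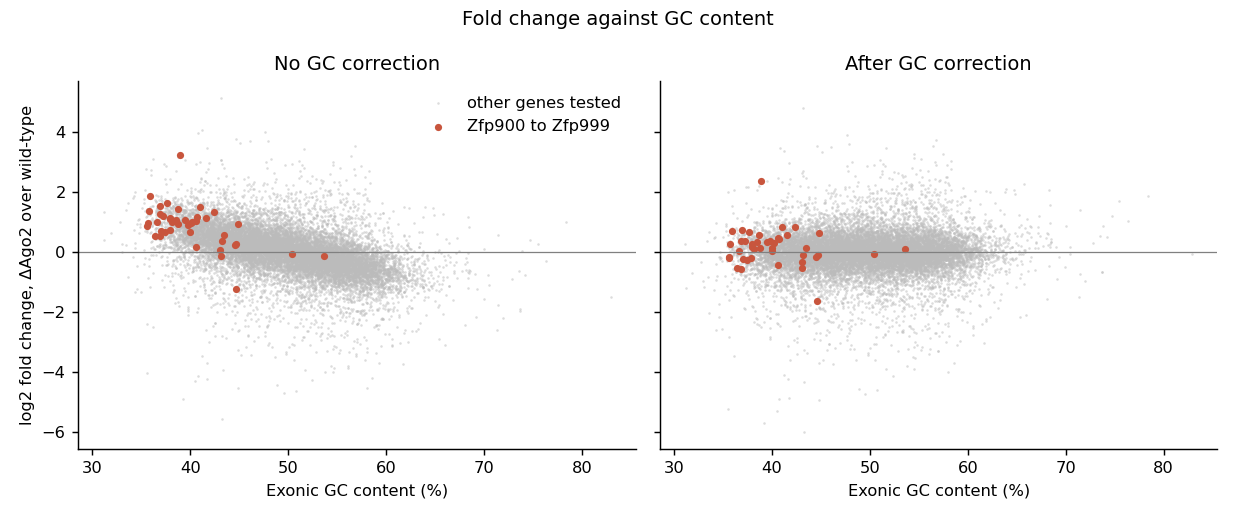
The log2 fold change of tumors labelled ΔAgo2 over wild-type against exonic GC content in percent, for all 16061 genes tested (grey) and the 42 members tested (red), without and with GC correction. The grey cloud slopes downward on the left and the members lie at its low-GC end, while on the right both centre near 0 and Zfp971 and Zfp941 stand apart from the other members.

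Groups whose 4 values lay wholly above or below the other 4 give a view that does not rest on a fitted spread. Without correction, 8 of 42 members were higher in every tumor labelled ΔAgo2 than in every wild-type tumor (19.0%, background 8.05% of all genes, and 16.5% of the 1823 genes of like GC). These were Zfp933, Zfp942, Zfp945, Zfp951, Zfp961, Zfp970, Zfp971 and Zfp974, named after their values were seen. Zfp941 alone was lower without overlap (background 8.36%). After correction 4 were higher without overlap (9.52%: Zfp930, Zfp951, Zfp961 and Zfp971, background 6.87%, and 4.72% of the genes of like GC) and Zfp941 was again lower (background 7.94%). Zfp951, Zfp961, Zfp971 and Zfp941 were thus the members whose groups stayed apart on both scales. Of these, Zfp971 became a member only through counts of the tumors labelled ΔAgo2, where it is high. The counts of 8 and 4 members both include it and are therefore not independent of the choice of members.

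Zfp945 (ENSMUSG00000059142.16, chr17:22846697-22867134, 18 fingers) shared 0% of its words with another gene. It stood at 3.41, 3.00, 3.03 and 1.58 CPM in the wild-type and at 7.43, 17.3, 4.75 and 11.5 CPM in the tumors labelled ΔAgo2. The groups did not overlap, and the spread was wide in the tumors labelled ΔAgo2, with 10.2 ± 5.45 CPM (SD, n = 4) against 2.75 ± 0.807. The log2 fold change was 1.86 with an SE of 0.41 and an adjusted p of 0.0383. GC correction brought it to 0.70 (SE 0.30, adjusted p = 0.219) and the groups then overlapped. Leaving out wild-type 2, wild-type 4, ΔAgo2 2 or ΔAgo2 4 ended the call with adjusted p-values of 0.111, 0.0836, 0.118 and 0.121, at log2 fold changes of 1.90, 1.70, 1.48 and 1.81.

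Zfp941 (ENSMUSG00000060314.13, chr7:140807449-140822178, 10 fingers) went the other way. Its levels were 2.30, 1.76, 2.33 and 1.86 CPM in the wild-type, and 0.636, 1.26, 0.776 and 0.812 CPM in the tumors labelled ΔAgo2. Every value of the second group lay under every value of the first, and in ΔAgo2 2, where most members were highest, it was still under all 4 wild-type tumors. The log2 fold change was -1.25 (SE 0.34, adjusted p = 0.0700) without correction and -1.62 (SE 0.29, adjusted p = 0.0129) with it. The call in the corrected fit was lost without ΔAgo2 3 (adjusted p = 0.0564) or ΔAgo2 4 (0.0747), with log2 fold changes of -1.60 and -1.57. At equal depth, where all libraries were thinned to the same total, the values were -0.64 (adjusted p = 0.335) without and -1.003 (adjusted p = 0.202) with correction. Of its exonic bases, 5.32% overlap Gm45785 on the same strand.

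Zfp971 (ENSMUSG00000074519.11, chr2:178023284-178034022, 12 fingers) had the highest fold change of the group. It was barely counted in the wild-type, at 0.244, 0.0953, 0.399 and 0.143 CPM (13, 2, 19 and 1 counts). Without counts of the other genotype it would have missed the minimum for members. The tumors labelled ΔAgo2 had it at 0.574, 5.18, 0.567 and 2.93 CPM. All 4 lay above the wild-type, ΔAgo2 2 and 4 by far the most. The log2 fold change of 3.24 (SE 0.81, adjusted p = 0.0531) and the corrected 2.38 (SE 0.63, adjusted p = 0.0661) did not pass the threshold. Zfp971 shared 22.1% of its words with other genes, with the predicted gene Gm14327 in first place.

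**Figure D4:**
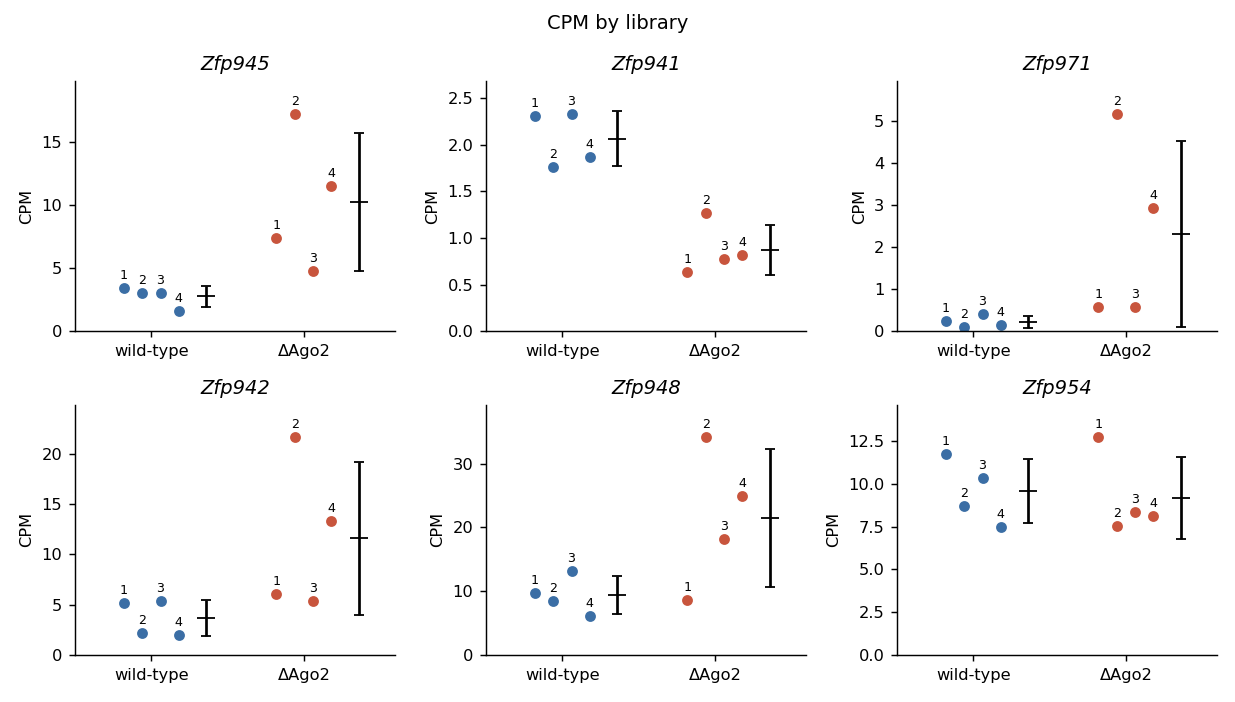
CPM in each library for 6 members, with the tumor number above each point and the mean ± SD (n = 4) beside each group, each panel with its own axis from 0. Zfp945 and Zfp971 are highest in ΔAgo2 2 and 4, Zfp941 is lower in all 4 tumors labelled ΔAgo2, and the groups of Zfp948 and Zfp954 overlap.

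Zfp942 and Zfp953 completed the 4 highest fold changes. Zfp942 stood at 5.13, 2.19, 5.32 and 2.01 CPM in the wild-type and at 6.03, 21.6, 5.34 and 13.3 CPM in the tumors labelled ΔAgo2. Its log2 fold change was 1.62 (SE 0.50, adjusted p = 0.0904), and 0.66 (adjusted p = 0.202) after correction. Although the groups did not overlap, ΔAgo2 3 exceeded wild-type 3 by the narrowest of margins. Zfp953 had 1.87, 0.477, 2.33 and 0.143 CPM against 2.59, 5.94, 2.27 and 4.57 CPM, with overlap of ΔAgo2 3 and wild-type 3. Its values were 1.55 (SE 0.62, adjusted p = 0.145) and 0.73 (adjusted p = 0.326).

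Among the most highly expressed members, Zfp948 had 9.65, 8.44, 13.2 and 6.16 CPM in the wild-type and 8.62, 34.1, 18.1 and 24.96 CPM in the tumors labelled ΔAgo2. Here ΔAgo2 1 lay inside the wild-type range and the other 3 above it (log2 fold change 1.18, SE 0.39, adjusted p = 0.102, and 0.43 with adjusted p = 0.356 after correction). Zfp944 had 3.58, 2.43, 4.52 and 1.00 CPM against 4.78, 14.6, 3.91 and 9.23 CPM, with ΔAgo2 3 inside the wild-type range. Its values were 1.45 (SE 0.50, adjusted p = 0.112) and 0.58 (adjusted p = 0.310). Zfp961, with 7.48, 4.39, 8.66 and 3.58 CPM against 9.23, 14.9, 9.94 and 13.2 CPM, kept its groups apart and lost less to the correction, from 0.95 (SE 0.32, adjusted p = 0.106) to 0.63 (SE 0.20, adjusted p = 0.116). Its GC content of 44.8% was above most members', and 4.18% of its exonic bases lie opposite exons of Cyp4f18. Zfp952 had 0.56 (SE 0.30, adjusted p = 0.241) and 0.15 (adjusted p = 0.669).

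Zfp954 and Zfp956 are the members with the highest GC content, 50.4% and 53.6%, and they showed little difference in either fit. Zfp954 had 11.8, 8.72, 10.3 and 7.45 CPM in the wild-type and 12.7, 7.52, 8.36 and 8.12 CPM in the tumors labelled ΔAgo2. The groups overlapped fully, with log2 fold changes of -0.07 (SE 0.26, adjusted p = 0.881) and -0.07 (SE 0.22). Zfp956, which did not match the KRAB core pattern, had 5.62, 7.01, 4.90 and 6.31 CPM against 5.68, 5.58, 5.46 and 5.01 CPM. Its log2 fold change was -0.13 (SE 0.24, adjusted p = 0.751) and 0.10 (SE 0.19) after correction.

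Zfp932 is known to silence endogenous retroviruses together with its close copy Gm15446, with which it shares 17.7% of its words. It stood at 2.79, 1.91, 4.44 and 1.00 CPM in the wild-type and at 2.61, 7.19, 3.16 and 4.03 CPM in the tumors labelled ΔAgo2. Only ΔAgo2 2 exceeded all wild-type tumors. The fold change turned with the correction, from 0.70 (SE 0.46, adjusted p = 0.340) to -0.24 (SE 0.26, adjusted p = 0.647), without passing in either direction.

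Zfp964 and Zfp972 were near the limit of detection. Zfp964 had 0.375, 0.429, 0.378 and 0 CPM in the wild-type and 0.267, 0.272, 0.328 and 0.357 CPM in the tumors labelled ΔAgo2 (log2 fold change -0.13, SE 0.50, and -0.55, SE 0.49, after correction). Zfp972 had 0.225, 0.286, 0.294 and 0 CPM against 0.205, 0.254, 0.328 and 0.207 CPM (0.06, SE 0.51, and -0.34, SE 0.50, after correction). The 0 of wild-type 4 allows up to 0.430 CPM in both, so a difference there was not detectable at this depth. Zfp993, with at most 0.252 CPM, was not tested.

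**Figure D5:**
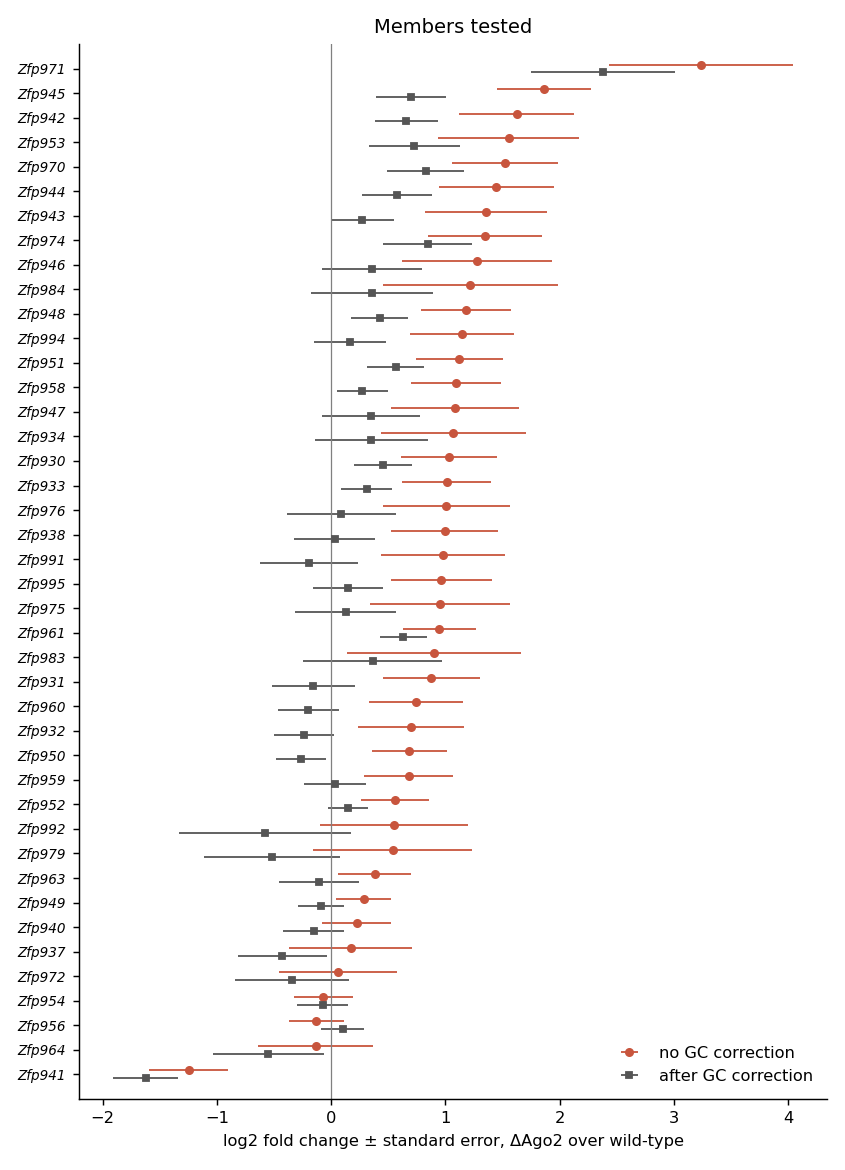
The log2 fold change of tumors labelled ΔAgo2 over wild-type with its standard error for the 42 members tested, without (circles) and with (squares) GC correction, ordered by the first. Squares lie to the left of circles for most members, and Zfp941 at the bottom moves further below 0 with correction.

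By position, the 10 members of the chromosome 17 cluster were all higher, with log2 fold changes of 0.90 to 1.86 and a median of 1.23 without correction. With it all 10 stayed above 0, at 0.14 to 0.70 with a median of 0.36, and none passed the threshold. Their mean log2 CPM after correction was 1.55, 1.34, 1.79 and 0.76 in the wild-type and 1.66, 2.36, 1.69 and 2.06 in the tumors labelled ΔAgo2. The groups overlapped there through wild-type 3. Neighbouring genes with like GC content are not independent of each other, and no test was made of the cluster. Without correction 90.5% of all members tested were higher, beside 87.8% of the genes of like GC and 52.5% of all genes. With correction these shares were 64.3%, 49.1% and 49.6%. Zfp947, 1 of the 10, became a member only through counts of the tumors labelled ΔAgo2.

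The 5 tested members of the chromosome 4 stretch had a median of 0.98 (0.54 to 1.22) without and -0.19 (-0.58 to 0.36) with correction, and 2 of 5 stayed above 0. On chromosome 2, the 4 genes around Zfp971 ran from 0.06 (Zfp972) to 3.24 (Zfp971) without and from -0.34 to 2.38 with correction, where Zfp971 and Zfp970 stayed above 0. On chromosome 8, Zfp930, Zfp963 and Zfp964 had a median of 0.38 and, corrected, -0.10. The 25 members sharing under 5% of their words had a median of 0.99 without and 0.27 with correction, and the 17 others 0.95 and -0.10. The difference was not tested.

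The repressor machinery that KRAB proteins need was read from a list of 28 genes, and 0 of 28 passed the test in either fit (background 3.49% and 4.17%). The median log2 fold change was 0.23 without and -0.01 with correction. Without correction 9 genes (5 higher, 4 lower) had an unadjusted p under 0.05 (32.1%, beside 26.7% of all genes). With it 5 genes (2 higher, 3 lower) had such a p (17.9%, beside 21.4% of all genes). By DESeq2, 7 of 28 passed (5 higher, background 12.4% in either direction), and by limma voom with quality weights 8 of 28 (5 higher, background 27.9%).

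Trim28, the cofactor bound by the KRAB domain, stood at 374, 543, 349 and 638 CPM in the wild-type and at 331, 242, 285 and 266 CPM in the tumors labelled ΔAgo2. The groups did not overlap and the second was lower, with a log2 fold change of -0.76 (SE 0.24, adjusted p = 0.0933) and, corrected, -0.27 (adjusted p = 0.254). Trim28 has a GC content of 57.1%, and its highest values were in wild-type 2 and 4, the libraries in which the low-GC members were lowest. After GC correction its groups still did not overlap, with log2 CPM of 8.58 to 8.69 in the wild-type and 8.26 to 8.39 in the tumors labelled ΔAgo2. Setdb1, the H3K9 methyltransferase, stood at 54.2, 61.2, 48.5 and 40.4 CPM against 33.8, 75.6, 56.8 and 62.3 CPM, with full overlap (log2 fold change 0.16, SE 0.25, adjusted p = 0.707, and -0.04 with adjusted p = 0.939 after correction). The lowest adjusted p of the list belonged to the HP1 gene Cbx5 without correction (0.0526 at a log2 fold change of 1.24, and 0.0722 at 0.72 with correction). With correction it belonged to the H3K9 methyltransferase gene Suv39h1 (0.0565 at -0.73, and 0.0898 at -0.63 without). Both were named after their values were seen, and in both the groups stayed apart on both scales, higher for Cbx5 and lower for Suv39h1. Of the 28 genes, 2 were higher and 5 lower without overlap before correction (background 8.05% and 8.36% of all genes). After correction 1 was higher and 3 were lower, namely Trim28, Suv39h1 and Atf7ip (background 6.87% and 7.94%). Whether the list differs from the background was not tested.

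Bulk tumors mix cancer cells with host cells, so a higher level in more of the cells cannot be told apart from more cells of a type, and less RNA per cell cannot be told apart from fewer cells. Of 12 marker lists, 2 had summed levels that did not overlap between groups. Among all single genes tested, 8.05% were higher and 8.36% lower without overlap in CPM. Such a share was not computed for sums over marker lists, so the count of lists is no result about cell types by itself. Skeletal muscle (5 of 5 genes found, 0 called) summed to 196 to 2965 CPM in the wild-type and 33.4 to 162 CPM in the tumors labelled ΔAgo2. Proliferation markers (5 of 5 found, 0 called) summed to 396 to 654 CPM against 746 to 1037 CPM. Skin keratinocytes were the one list with a gene called (1 of 5), with a median log2 fold change of 1.57, and summed to 10.3 to 556 CPM, lowest in wild-type 3, against 437 to 856 CPM. The leukocyte list overlapped, with 654 to 1008 and 605 to 969 CPM. The part of muscle, skin and proliferating cells in the members' levels was not tested.

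Other tools called more of the members and more of all genes. DESeq2 called 10 of 43, 9 higher and Zfp941 lower, beside a background of 12.4%. Limma voom with quality weights called 17 of 42, 16 higher and Zfp941 lower, beside 27.9%. For genes called higher alone the backgrounds were 6.11% and 14.9%, and for genes called lower 6.26% and 13.0%. Neither of these fits removed the GC trend.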

How the data were processed

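The authors deposited whole-number gene counts and, in a second table, TPM values for the same 55487 genes. Per the labels, RNA from tumors lysed in TRIzol was made into stranded Illumina mRNA libraries and sequenced in pairs, with STAR and mm10 named for processing. The study's methods, written for cultured cells, name removal of ribosomal reads and featureCounts. The strand setting, the handling of reads matching several genes and the annotation release are not given in the sources used here.

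Gene IDs were matched to GENCODE M21, 55094 with and 300 without version. Genes passing filterByExpr were fitted with edgeR 4.0.16 (TMM, quasi-likelihood, R 4.3.3), 4 against 4, with no covariate and Benjamini-Hochberg adjustment at 0.05. Standard errors are the fold change over the root of F. GC correction subtracted each library's lowess trend (span 0.3) on exonic GC over genes with a mean of 50 or more counts. CPM are scaled by TMM, and log2 CPM use a prior count of 2. DESeq2 1.42.0 and limma 3.58.1 on counts, and limma on log2(TPM + 1), were alternatives. The scripts were tested on simulated data.

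The members and lists were chosen with earlier results of these data known. Named are members past 0.05 in either fit, the 4 highest and 4 lowest fold changes, the 5 highest mean TPM, 2 genes on either side of the count minimum, Zfp932, Ago2, Trim28 and Setdb1. The labels call the tumors biological replicates. KRAB cores and fingers were found by amino acid patterns in translated GENCODE transcripts, and shared sequence by words of 100 bases.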

Additional observations from a re-analysis of the deposited data

Results flagged for a closer look

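In groups of 4 tumors, 3 values stood farther from the others than Dixon's limit allows, out of 36 groups of 4 examined, where chance gives 1.8. All 3 were in wild-type 4, the library with the lowest total count. Zfp945 stood at 1.58 CPM (11 counts) beside 3.00 to 3.41 CPM in the other wild-type tumors. Zfp964 stood at 0 CPM (0 counts) beside 0.375 to 0.429 CPM, and Zfp972 at 0 CPM (0 counts) beside 0.225 to 0.294 CPM. Without wild-type 4 the log2 fold change of Zfp945 was 1.70 with an adjusted p of 0.0836 by edgeR. For Zfp964 and Zfp972, a count of 0 in wild-type 4 allows up to 0.430 CPM, which covers the values of the other tumors.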

How the results depend on the processing

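The count of members past the threshold (1 of 42) was the same with DESeq2's size factors, total counts, upper-quartile scaling and, with 32 members tested, equal depth, where Zfp945 passed each time, and with GC correction by lowess, by bins or after length correction, where Zfp941 passed. It was 10 of 43 with DESeq2's test, 17 of 42 with limma voom, 3 of 43 with no count filter (Zfp942, Zfp945 and Zfp971), 2 of 19 with at least 10 counts in every library (Zfp945 higher and Zfp941 lower), and 3 of 42 with length correction (Zfp945 and Zfp971 higher, Zfp941 lower). It was 0 of 32 at equal depth with GC correction (4 at an unadjusted p under 0.05) and 0 by limma on log2(TPM + 1), on log2(TPM + 0.1) and on log2(TPM + 1) with no filter (17, 13 and 12 at an unadjusted p under 0.05). Leaving out 1 library gave 0 to 5 members without and 0 to 3 with GC correction. The count was 0 without wild-type 2, wild-type 4, ΔAgo2 2 or ΔAgo2 4 (10, 15, 8 and 11 at an unadjusted p under 0.05), 3 without wild-type 3 and 5 without ΔAgo2 1, and with GC correction 3 without ΔAgo2 1 and 0 without ΔAgo2 3 or ΔAgo2 4. The reasons were not tested. The share of all genes called is given above only for the main fit, the GC-corrected fit, DESeq2's test and limma voom. Counts under the other settings have no such background beside them and are no result about the members.

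The members' median log2 fold change of 0.97 became 0.15 with GC correction, 0.16 by bins, 0.17 at equal depth with GC correction, 0.32 with length then GC correction (33 of 42 higher), 0.11 with the replicate block and GC correction, and ran from 0.063 to 1.26 when 1 library was left out, where all values under 0.5 were from fits with GC correction. For the repressor machinery, 0 of 28 became 7 with DESeq2's test, 8 with limma voom, 4 with no count filter, 1 with at least 10 counts in every library, 2 with length correction and 1 at equal depth. With 1 library left out it was 0 to 3 without and 0 to 4 with GC correction, and the highest counts were without ΔAgo2 1. Apart from DESeq2's test and limma voom, these counts also stand without a background share.

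The labels do not say whether tumors of the same number were handled together. Same-numbered tumors of both genotypes had correlations of -0.24, 0.10, -0.04 and -0.29 between their deviations from the group means over all genes tested. Wild-type 4 correlated best with ΔAgo2 1 (0.32). These values cannot show whether the samples were paired, because the libraries' GC trends were still in them. With the replicate block 0 members passed (10 at an unadjusted p under 0.05), and with block and GC correction 0 (4 at an unadjusted p under 0.05). Zfp945 then had log2 fold changes of 1.74 (adjusted p = 0.148) and 0.70 (0.179), and Zfp941 -1.28 (0.209) and -1.65 (0.0584).

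Among named members, 5 turned sign under some setting, none past the threshold. Zfp932 was negative with GC correction (-0.24), by bins (-0.14), with length then GC correction (-0.045), and with GC correction at equal depth (-0.082) or with the replicate block (-0.19), and ran from -0.35 to 1.096 with 1 library left out. Zfp956 turned positive with GC correction (0.10), by bins (0.087), with length then GC correction (0.18), with the replicate block and GC correction (0.11) and by limma on TPM (0.082 and 0.095, and 0.082 with no filter), and ran from -0.21 to 0.15 with 1 library left out. Zfp954 turned positive with length then GC correction (0.030) and by limma on TPM (0.13 and 0.14, and 0.13 with no filter), and ran from -0.28 to 0.057 with 1 library left out. Zfp964 turned positive by limma on log2(TPM + 1) with no filter (0.025). Zfp972 turned negative with upper-quartile scaling (-0.0069), limma voom (-0.068), GC correction (-0.34), by bins (-0.31), with length then GC correction (-0.22), with block and GC correction (-0.17), and ran from -0.50 to 0.23 with 1 library left out. Depth limits wild-type 4 most, where 5 members had 0 counts.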
